A study of Mus musculus with 9 samples.

Results

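The insulin-like growth factor (IGF) genes described here are 10 of the 24421 genes in the count tables of a mouse RNA sequencing study, taken by symbol. They are the ligands Igf1 and Igf2, the receptors Igf1r, Igf2r and Insr, and the binding proteins Igfbp3, Igfbp4, Igfbp5, Igfbp6 and Igfbp7. The study holds 9 libraries of total RNA, 2 from kidney and 7 from muscle. In kidney, 1 library came from a wild type animal and 1 from an animal with a tumour, both given PBS. In muscle, 2 libraries came from wild type animals given PBS, and 1 each from wild type given DKK1, tumour given PBS, tumour given MDC, and the beta-arrestin knockout label given PBS or DKK1. The series title places the work in cancer cachexia, the wasting that comes with a tumour, and in the uptake of LRP6 driven by Dkk1. DKK1 is a secreted inhibitor of Wnt signalling, and beta-arrestins are adaptor proteins of receptor uptake. The labels give MDC by its letters alone, and do not name the tumour, the deleted beta-arrestin gene, the strain, the age or the muscle. PBS or an agent was given in every group. Only wild type PBS muscle had more than 1 library, and nothing in the labels says how many animals each library held.

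IGF1 and IGF2 are small secreted ligands that signal through the receptor kinase IGF1R, and IGF2 also through forms of the insulin receptor INSR. IGF2R, the mannose 6-phosphate receptor, takes IGF2 into lysosomes and does not act as a kinase. The binding proteins hold IGFs in the blood and around cells, and proteases release them by cutting the binding proteins. In skeletal muscle, IGF1 made in the tissue promotes growth of fibres through PI3K, AKT and mTOR, and in kidney IGF signalling bears on growth of the nephron and on filtration.

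The 250 bases before the RefSeq start (build GRCm38.p6) are shown here for 4 binding protein genes called in a fit of 4 muscle libraries. In it Igfbp3 and Igfbp6 were called as higher with DKK1, and Igfbp4 and Igfbp7 as lower with the knockout label. Igf2 and Igfbp3 (lower) and Igfbp5 (higher) were also called for that label. Of 14267 genes, the fit called 0.743% for DKK1 and 21.8% for the knockout label. All of these calls ended when a further wild type library was added. The windows of Igfbp3 and Igfbp4 lie inside the RefSeq span of the gene. The windows are at chr15:102143936-102144185 (plus strand), chr11:7213924-7214173 (minus strand), chr11:99040994-99041243 (plus strand) and chr5:77408046-77408295 (minus strand). Capitals mark matches, on either strand, to the TATA box TATAAA, the SP1 GC box GGGCGG, the TCF/LEF core CTTTGA, the FoxO site GTAAACA or the STAT5 site TTCNNNGAA.
Igfbp6 promoter: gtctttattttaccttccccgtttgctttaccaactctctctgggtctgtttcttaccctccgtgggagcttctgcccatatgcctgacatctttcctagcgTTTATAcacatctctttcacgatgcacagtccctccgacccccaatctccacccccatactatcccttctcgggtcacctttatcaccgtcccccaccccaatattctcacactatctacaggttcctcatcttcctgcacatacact
Igfbp3 promoter: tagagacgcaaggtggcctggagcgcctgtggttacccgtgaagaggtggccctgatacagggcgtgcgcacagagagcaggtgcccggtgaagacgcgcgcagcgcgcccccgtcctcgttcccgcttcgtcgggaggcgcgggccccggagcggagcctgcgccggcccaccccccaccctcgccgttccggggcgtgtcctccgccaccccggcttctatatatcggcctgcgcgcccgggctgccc
Igfbp4 promoter: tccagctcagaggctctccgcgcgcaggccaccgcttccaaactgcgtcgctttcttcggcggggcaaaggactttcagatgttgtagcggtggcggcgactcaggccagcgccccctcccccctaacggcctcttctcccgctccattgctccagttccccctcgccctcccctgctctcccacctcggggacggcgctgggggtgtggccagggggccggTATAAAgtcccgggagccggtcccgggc
Igfbp7 promoter: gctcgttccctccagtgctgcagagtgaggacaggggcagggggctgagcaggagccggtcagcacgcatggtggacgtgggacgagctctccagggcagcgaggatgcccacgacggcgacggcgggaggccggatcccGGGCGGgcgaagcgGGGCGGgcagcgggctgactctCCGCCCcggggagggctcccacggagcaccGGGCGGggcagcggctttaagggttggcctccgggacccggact
The Igfbp7 window held 4 GC boxes, which began from 44 to 110 bases before the start, and its GC content was 74%. In the Igfbp4 window the only match was a TATA box that began 28 bases before the start, with a GC content of 69.2%. Igfbp6 had the lowest GC content of the 4, 49.6%, and a TATA box on the reverse strand that began 148 bases before the start. The Igfbp3 window had a GC content of 73.2% and matched none of the 5 motifs as written. The motifs did not overlap one another in these windows. Of 32851 RefSeq windows of this length, 12.4% held the TATA box, 32.7% the GC box, 13.8% the TCF/LEF core, 3.17% the FoxO site and 7.02% the STAT5 site, and the median GC content was 52.4%. RefSeq windows were found for 9 of the 10 genes, 12 windows in all since Igf2 has 4 starts. A TCF/LEF core was also in the windows of Igf1 and Igf1r and of 1 of the 4 Igf2 starts, and no window of these genes held the FoxO or the STAT5 site. A match is a run of letters only.

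By RefSeq (GRCm38.p6), the ligand genes lie at chr10:87858265-87937047 (Igf1) and chr7:142650768-142666816 (Igf2), and the receptor genes at chr7:67952257-68233668 (Igf1r), chr17:12682406-12769706 (Igf2r) and chr8:3150922-3279649 (Insr). The binding protein genes lie at chr11:7206086-7215498 (Igfbp3), chr11:99040005-99052655 (Igfbp4), chr1:72858065-72874865 (Igfbp5), chr15:102144186-102149512 (Igfbp6) and chr5:77349240-77408045 (Igfbp7). Igf2 overlaps Igf2os, and Igf2r overlaps the antisense RNA gene Airn. The strand setting of the counting is not given in the sources used here, so reads of such partners cannot be told apart. Counts of Airn were 1.97% to 8.31% of those of Igf2r, and counts of Igf2os were 0.0657% to 6.67% of those of Igf2.

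Total counts were 42480786 and 44421797 in kidney and from 21358854 to 32607835 in muscle. Levels are CPM, counts relative to the library's TMM-scaled total, and a count of 0 allows up to 3 counts, from 0.0506 to 0.151 CPM by library. Markers matched the labelled tissues. The summed level of 10 skeletal myofibre markers was 88200 to 277000 CPM in muscle, and 238 CPM in wild type and 182 CPM in tumour kidney. The 8 distal nephron markers summed to 4110 and 8620 CPM in kidney and to 1.88 to 18.6 CPM in muscle. The 18.6 CPM was in wild type PBS library 1, where the distal nephron gene Umod was 12.2 CPM against 0.994 CPM in library 2. The source of these reads was not tested. The knockout labels could not be checked by a lower beta-arrestin level. Arrb1 was 18.6 and 22.0 CPM in wild type PBS muscle and 22.3 and 30.7 CPM in the libraries labelled knockout, and Arrb2 was 8.18 and 8.52 CPM against 10.4 and 8.67 CPM. The groups are therefore called by their label. Table names carry a set letter: kidney is set A, wild type PBS library 1 and the tumour muscle libraries are set B, and wild type PBS library 2, the DKK1 libraries and the knockout-labelled libraries are set C.

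The wild type PBS pair stood far apart, and it is the only pair of one group in the 7-library and 9-library fits. Igf1 was 9.04 CPM in library 1 and 27.2 CPM in library 2, a ratio of 3.01 (exact conditional binomial 95% interval 2.54 to 3.58, counting error only). Igfbp4 was 41.3 and 92.4 CPM, 2.24-fold higher in library 2 (2.06 to 2.43). These 2 genes were higher by the size rule used throughout, at least a 2-fold difference with at least 100 counts in the higher library, and 14.4% of 10720 genes were higher by it in library 2. Igfbp5 differed the other way, 795 against 448 CPM. The other 7 genes differed less than 1.6-fold, and Igfbp7 was nearly level at 84.4 and 85.5 CPM. Cell markers differed too: library 2 was higher by the size rule for 11 of 11 macrophage markers, 7 of 9 pericyte and smooth muscle markers, 7 of 8 adipocyte markers and 10 of 10 slow fibre markers that had 100 counts. In bulk tissue fewer cells of a type and less RNA per cell cannot be told apart.

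**Figure D1:**
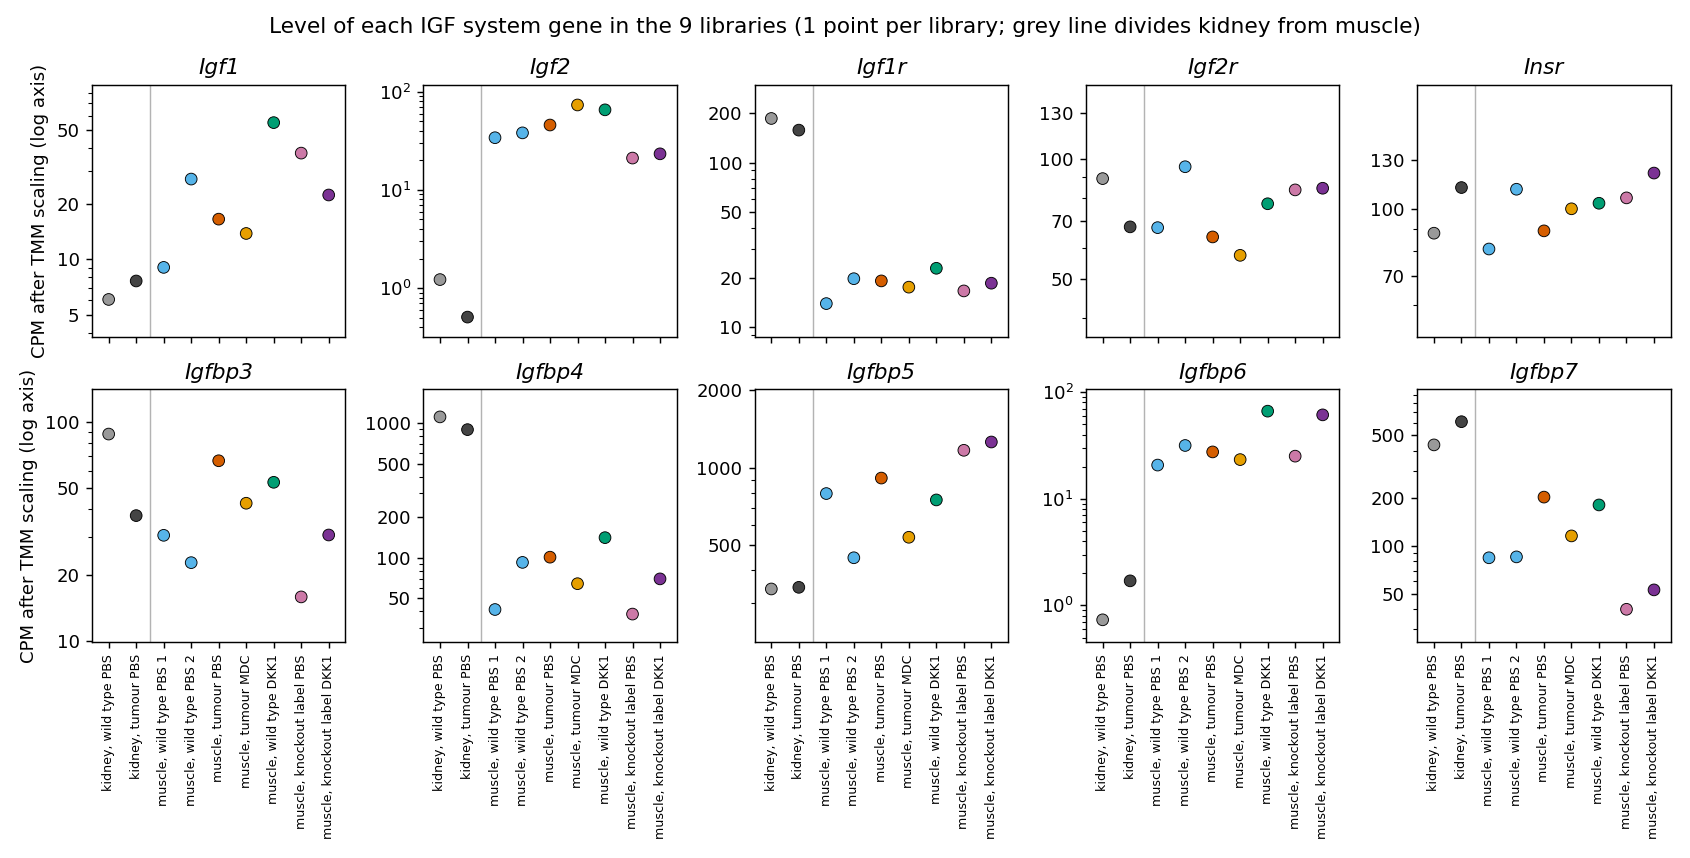
Level of each IGF system gene in CPM after TMM scaling (vertical log axis, each panel with its own range) in the 9 libraries, 1 point per library. Kidney, left of the grey line, is above every muscle library for Igf1r, Igfbp4 and Igfbp7 and below every muscle library for Igf1, Igf2, Igfbp5 and Igfbp6.

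After TMM scaling, kidney and muscle differed without overlap in both ligands, in the receptor gene Igf1r and in 4 of the 5 binding protein genes. With scaling by total counts, Igf1 and Igfbp5 overlapped between the tissues. The share of all genes without overlap was not computed. Differences between the tissues were common, with 8262 of 16058 genes called by edgeR in a fit with 1 coefficient per tissue. Among the ligands, Igf2 was 1.22 CPM in wild type kidney and 0.506 CPM in tumour kidney, against 21.1 to 73.3 CPM in muscle (median 38.1). Igf1, the main growth factor of adult tissue, was 6.06 and 7.63 CPM in kidney and 9.04 to 55 CPM in muscle. Of the receptors, Igf1r was 186 and 158 CPM in kidney and 13.9 to 22.8 CPM in muscle, with no overlap. Igf2r (89.2 CPM in wild type and 67.6 CPM in tumour kidney, 57.4 to 95.5 in muscle) overlapped. So did Insr (87.8 and 112 CPM in kidney, 80.7 to 121 in muscle). Among the binding proteins, Igfbp4, which holds IGFs away from their receptor, was 1110 CPM in wild type and 893 CPM in tumour kidney and 38.2 to 141 CPM in muscle. Igfbp7, a low-affinity IGF binding protein of vessel walls, was 436 and 611 CPM in kidney and 39.9 to 204 CPM in muscle. Igfbp6, which prefers IGF2, was 0.733 and 1.70 CPM in kidney and 20.7 to 66.3 CPM in muscle. Igfbp5, a binding protein held in the matrix, was 339 and 344 CPM in kidney and 448 to 1260 CPM in muscle. Igfbp3, the main carrier of IGFs in blood, overlapped (88.2 and 37.4 CPM in kidney, 15.9 to 66.6 in muscle).

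Wild type kidney was tested against wild type muscle with edgeR's quasi-likelihood test over all 9 libraries, with Benjamini-Hochberg adjustment, and 15.7% of 16711 genes were called. Of the 10 IGF genes, 5 were called. Igf1r rose by a log2 difference of 3.47 ± 0.61 (SE, adjusted p = 0.00168), Igfbp4 by 4.05 ± 0.77 (0.00281) and Igfbp7 by 2.36 ± 0.66 (0.0293) in kidney. Igf2 (-4.89 ± 0.80, adjusted p = 0.00104) and Igfbp6 (-5.15 ± 0.85, 0.00105) were called as lower in kidney. The call for Igfbp7 was lost with limma-voom (adjusted p = 0.0589). Igfbp3 did not pass (1.73 ± 0.59, adjusted p = 0.0676) but passed with DESeq2 (0.0488) and with scaling by total counts (0.0162). With 1 coefficient per tissue over all 9 libraries, Igf1 (-1.92, adjusted p = 0.0285) and Igfbp5 (-1.30, 0.0215) were also called, and Igfbp3 was at 0.75. The test's spread rests on the wild type muscle pair, and tissue and set cannot be told apart. By the size rule against each wild type muscle library, 4 of the 10 were higher in kidney (24.3% of 13193 genes) and 2 were lower (14%). In the pathway lists, kidney was higher by the size rule for 4 of 6 other ligand, receptor and binding protein genes with 100 counts and lower for none. Igfbp1, a binding protein made mainly in liver and kidney, was 21.9 CPM in wild type kidney against 0 and 0.0473 CPM in wild type muscle, and the insulin receptor-related kinase gene Insrr was 16.9 CPM against 0.303 and 0.0473 CPM. Of 8 insulin-responsive metabolic genes of muscle, 5 were lower in kidney and 1 higher. Hexokinase gene Hk2 was 2.11 CPM against 454 and 678 CPM, and the glucose transporter gene Slc2a4 was 19.4 CPM against 983 and 874 CPM. H19, the imprinted RNA gene beside Igf2, was 0.858 CPM in wild type kidney and 399 and 764 CPM in wild type muscle.

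Levels of different genes were compared per length, as RPKM after TMM scaling. The 5 binding protein genes summed to 991 and 1010 RPKM in kidney and to 226 to 422 RPKM in muscle, and the ligands to 1.06 and 1.10 RPKM in kidney and 8.35 to 22.5 RPKM in muscle. The receptors summed to 34.9 RPKM in wild type and 32.7 RPKM in tumour kidney and 17.3 to 24.2 RPKM in muscle. Igfbp4 held 54.2% of the binding protein sum in wild type kidney and 42.7% in tumour kidney, and Igfbp7 held 36.3% and 49.8%. In muscle Igfbp5 held 30.6% to 72.1%, with the highest shares in the libraries labelled knockout (72.1% with PBS and 61.1% with DKK1), where Igfbp7 held 11.8% and 12.4%. In the other 5 muscle libraries Igfbp7 held 27.4% to 39.9%. Among receptors in muscle, Insr had the most RPKM in each library (8.63 to 12.9 RPKM), Igf2r was 6.43 to 10.7 RPKM and Igf1r 1.16 to 1.90 RPKM.

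**Figure D2:**
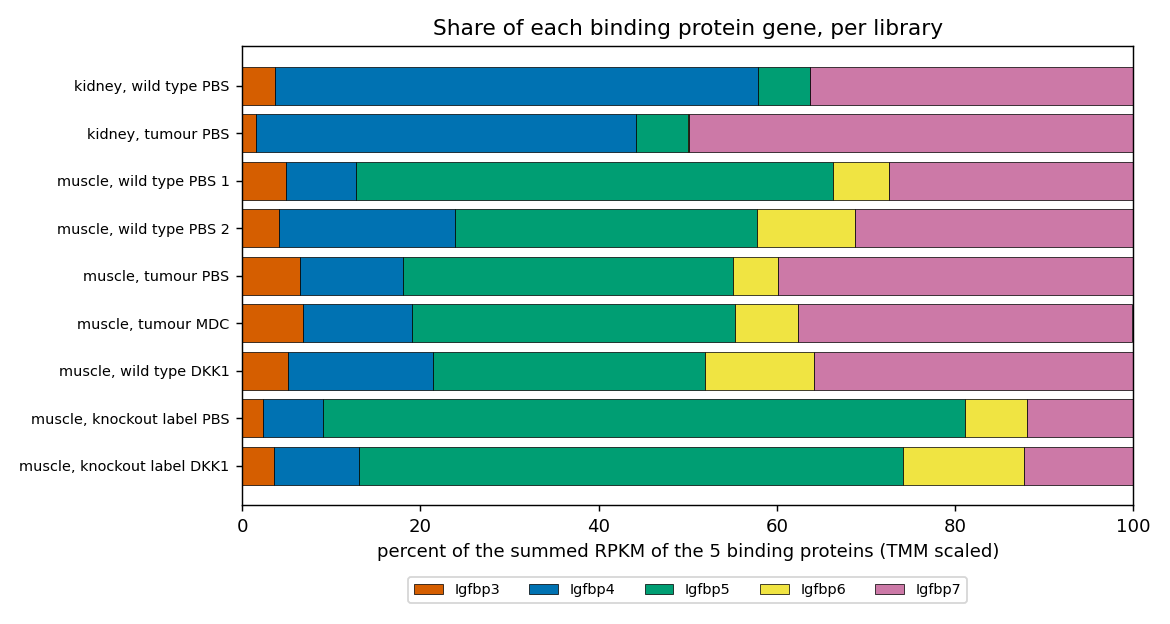
Share of each binding protein gene in the summed RPKM of the 5 genes (horizontal axis in percent, 1 bar per library). Igfbp4 and Igfbp7 fill most of the kidney bars, and Igfbp5 takes 72.1% and 61.1% in the muscle libraries labelled knockout.

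Tumour and wild type kidney, with 1 library each, were compared without a test, and the intervals cover counting error only. Igfbp3 was 88.2 CPM in wild type and 37.4 CPM in tumour kidney, 2.36-fold lower with the tumour (2.24 to 2.48). Igfbp6 was 0.733 and 1.70 CPM, 2.32-fold higher with the tumour (1.6 to 3.43). These 2 were past the size rule, by which 5.61% of 12897 genes were higher and 4.07% lower. Igfbp6 was only just past its limit of 100 counts, with 101 counts in tumour and 41 in wild type kidney. Igf2 was 1.22 and 0.506 CPM, a ratio of 0.416 (0.261 to 0.648), at under 100 counts. The other 7 genes differed by at most 1.40-fold, with Igfbp7 1.40-fold higher (1.38 to 1.43) and Igf2r 1.32-fold lower (1.27 to 1.38). Of 10 genes for IGFBP proteases and their inhibitors, 5 were higher and 1 lower. The plasminogen activator gene Plat was 25.1 and 106 CPM and Stc1, whose product stanniocalcin inhibits PAPP-A, was 3.86 and 15.8 CPM, while the protease gene Htra1 was 181 and 89.5 CPM. Pappa and Pappa2, genes of IGFBP proteases, were also among the 5 (Pappa 5.88 and 17.7 CPM). Socs2 and Socs3, which damp growth hormone and cytokine signalling, were higher with the tumour (21.3 and 52.4 CPM, and 2.14 and 10.3 CPM). Igfbp1 was 21.9 and 9.30 CPM. The 8 adipocyte markers summed to 113 CPM in wild type and 1140 CPM in tumour kidney, and 7 of 7 with 100 counts were higher, while 12 endothelial markers summed to 234 and 229 CPM. Distal nephron markers summed to 4110 CPM in wild type and 8620 CPM in tumour kidney, with 3 of 8 higher, and proximal tubule markers to 7820 and 5750 CPM, with 1 of 8 lower. Erythroid markers summed to 214 and 871 CPM, and neutrophil markers to 0.822 and 14.1 CPM. The part of these cells in the IGF gene differences was not tested.

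Muscle of the tumour animal given PBS had higher Igfbp3 and Igfbp7 than either wild type library. Igfbp3 was 66.6 CPM against 30.4 and 22.8 CPM, and Igfbp7 was 204 CPM against 84.4 and 85.5 CPM. Both were past the size rule, which 1.34% of 11292 genes passed upward. The fitted log2 change was 1.32 ± 0.57 for Igfbp3 and 1.26 ± 0.62 for Igfbp7 (adjusted p = 1 for both) by edgeR's quasi-likelihood test over the 7 muscle libraries. Of 15269 genes 0 passed (0%), although 160 had an unadjusted p under 0.05. DESeq2 called 12 genes, and 0 of the IGF genes. The level of the other binding proteins, Igfbp4 (101 CPM), Igfbp5 (913 CPM) and Igfbp6 (27.5 CPM), and of both ligands (Igf1 16.5 and Igf2 45.8 CPM) was less than 2-fold from at least 1 wild type library. The 3 receptors lay between or within 1.1-fold of the wild type libraries, with Igf2r at 63.8 CPM against 67.3 and 95.5 CPM. Across the 10 genes the median log2 change was 0.26, against -0.03 for all genes tested. Of 8 growth hormone axis genes, 3 were higher: Cish at 112 CPM against 12.6 and 7.91 CPM, Socs2 at 33.9 CPM against 11.2 and 13 CPM, and Socs3. Stc2 was the only protease or inhibitor gene of 10 that was higher. Endothelial markers summed to 907 CPM against 420 and 728 CPM, with 2 of 12 higher by the size rule, and neutrophil markers to 349 CPM against 14.4 and 0.521 CPM, with 7 of 7 measured markers higher. Erythroid markers summed to 1410 CPM against 356 and 352 CPM. Their part in the binding protein levels was not tested.

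The tumour difference of Igfbp3 pointed down in kidney and up in muscle. Tested as a difference between the tissues in the 9-library fit, it was -2.56 ± 0.93 in log2 (kidney minus muscle, edgeR adjusted p = 1). For this difference edgeR called 0% of 16711 genes, and 126 had an unadjusted p under 0.05, of the IGF genes Igfbp3 alone.

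MDC in tumour animals went with lower levels of most binding proteins, none by 2-fold. Igfbp7 was 204 CPM with PBS and 116 CPM with MDC, 1.77-fold lower (1.68 to 1.85, counting error only). Igfbp5 was 913 and 538 CPM (1.70-fold lower), Igfbp4 101 and 64.2 CPM (1.57-fold) and Igfbp3 66.6 and 42.6 CPM (1.56-fold). Igf2 differed the other way, 45.8 and 73.3 CPM, 1.6-fold higher with MDC (1.49 to 1.72). Its MDC level was the highest of the 9 libraries. No IGF gene was past the size rule, by which 3.39% of 11005 genes were lower, but with scaling by total counts Igfbp5 and Igfbp7 were. The calls were 0% of genes by edgeR (33 had an unadjusted p under 0.05) and 0 genes by DESeq2. The median log2 change was -0.25 for the 10 genes and -0.01 for all genes tested. Cish was 112 CPM with PBS and 9.06 CPM with MDC, Stc1 3.26 and 0.193 CPM, and Plat 5.41 and 1.69 CPM, all lower by the size rule. Pdk4, a kinase gene that blocks glucose oxidation, was 712 and 224 CPM. Endothelial markers summed to 907 CPM with PBS and 699 CPM with MDC, and neutrophil markers to 349 and 41.4 CPM. By the size rule 7 of 8 adipocyte and 5 of 12 macrophage markers were lower with MDC, and 9 of 10 slow fibre markers higher. Their part was not tested. Against wild type PBS muscle, the tumour MDC library had 0 of 10 genes past the size rule, and edgeR called 0% of genes (211 had an unadjusted p under 0.05, and DESeq2 called 11). Igf2 came closest, at log2 differences of 1.11 and 0.94 from the 2 wild type libraries (fitted 1.02 ± 0.57, edgeR adjusted p = 1), and it was past the rule when library 2 was left out.

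**Figure D3:**
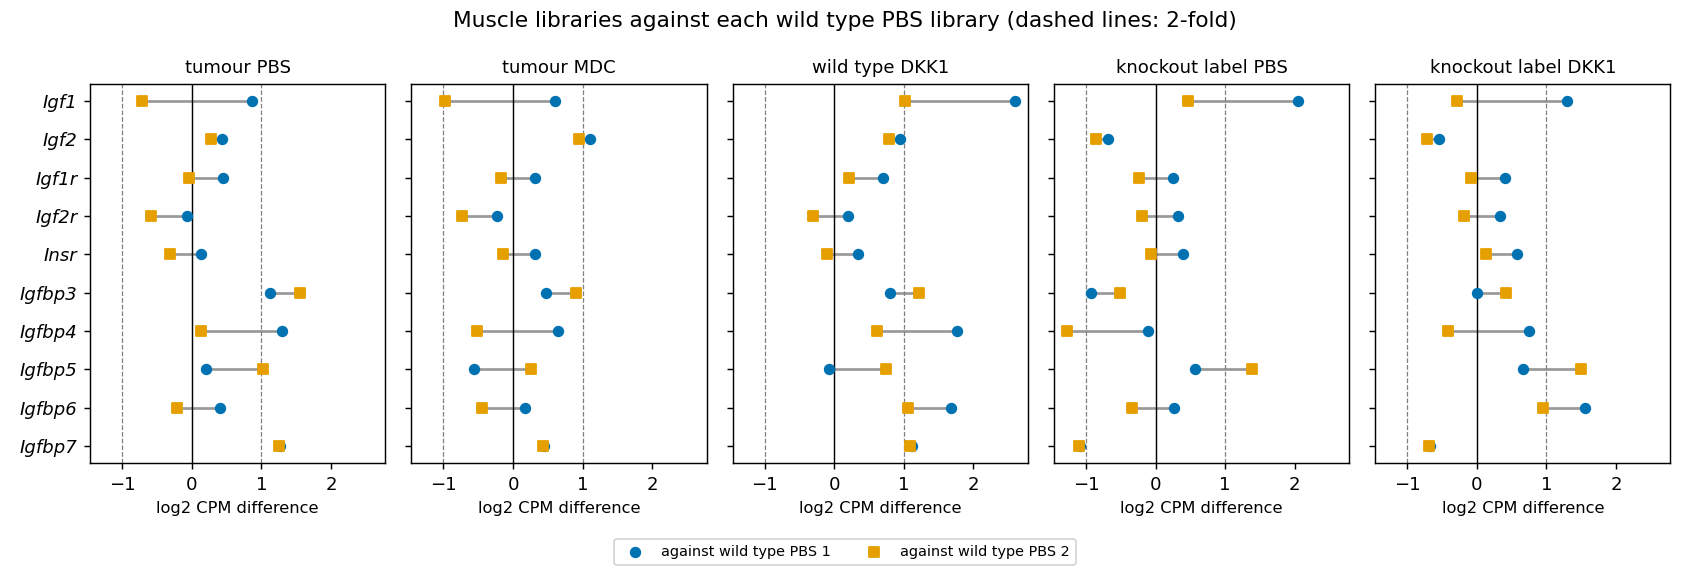
Difference in log2 CPM of each treated or labelled muscle library from wild type PBS library 1 (blue circles) and library 2 (orange squares), with dashed lines at 2-fold. Points beyond a dashed line on the same side for both references are Igfbp3 and Igfbp7 with the tumour and PBS, Igf1, Igfbp6 and Igfbp7 with DKK1, and Igfbp7 (lower) in the PBS library labelled knockout.

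DKK1 in wild type muscle went with higher Igf1, Igfbp6 and Igfbp7. Igf1 was 55 CPM against 9.04 and 27.2 CPM, the highest of the 9 libraries, and its margin over library 2 was just past 2-fold (log2 difference 1.01). Igfbp6 was 66.3 CPM against 20.7 and 31.6 CPM, and Igfbp7 was 182 CPM against 84.4 and 85.5 CPM. By the size rule 2.37% of 11646 genes were higher. With DESeq2 size factors Igf1 no longer passed, and with scaling by total counts Igf2 and Igfbp3 passed too. The fitted changes were 1.6 ± 0.66 for Igf1, 1.34 ± 0.58 for Igfbp6 and 1.10 ± 0.62 for Igfbp7, each with an adjusted p of 1 by edgeR. It called 0% of genes here, 198 had an unadjusted p under 0.05, and DESeq2 called 4. Igfbp4 (141 CPM), Igfbp3 (53.1 CPM) and Igf2 (65.4 CPM) were above both wild type libraries, by less than 2-fold from 1 or both. Igf2r (77.2 CPM) and Insr (103 CPM) lay between them. The median log2 change was 0.93 for the 10 genes and -0.03 for all genes tested. Mmp2, a matrix protease gene, was 104 CPM against 24.0 and 44.7 CPM, and Cish (60.8 CPM) and Socs2 (32.1 CPM) were also higher. This library also had the highest marker sums of the muscle set for endothelial (1370 CPM), fibroblast (3380 CPM) and Schwann cells (544 CPM), and the lowest for myofibres. Wild type PBS muscle had 420 and 728 CPM, 1040 and 1980 CPM, and 38.3 and 222 CPM. The part of these cells in the changes was not tested.

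In muscle labelled knockout, DKK1 went with higher Igfbp6. It was 25.1 CPM with PBS and 61.2 CPM with DKK1, 2.44-fold higher (2.22 to 2.69), and it was the only IGF gene past the size rule, by which 2.21% of 10838 genes were higher. Igfbp3 (15.9 and 30.5 CPM, 1.92-fold) and Igfbp4 (38.2 and 69.7 CPM, 1.82-fold) were just under it. Igf1 differed the other way from wild type muscle: 37.6 CPM with PBS and 22.3 CPM with DKK1, 1.68-fold lower (1.52 to 1.87). The difference between the DKK1 changes of Igf1 in the 2 genotype labels was -2.35 ± 1.00 in log2 (edgeR adjusted p = 1). EdgeR called 0% of genes for this difference (39 had an unadjusted p under 0.05, and DESeq2 called 3). For DKK1 within the knockout label it also called 0% (43 had an unadjusted p under 0.05, and DESeq2 called 0). Igf2 (21.1 and 23.3 CPM), Igf1r, Igf2r, Insr and Igfbp5 (1170 and 1260 CPM) were within 1.2-fold. Slow fibre markers summed to 189 CPM with PBS and 6990 CPM with DKK1 in these libraries, and fibroblast markers to 974 and 1830 CPM.

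The 4 libraries of set C allow DKK1 to be tested over both genotype labels, with genotype as a term, and here Igfbp3 and Igfbp6 rose. Igfbp6 rose by 1.18 ± 0.14 in log2 (adjusted p = 0.0115) and Igfbp3 by 1.08 ± 0.15 (adjusted p = 0.0165), in edgeR's test with Benjamini-Hochberg adjustment, where 106 of 14267 genes (0.743%) passed. Both were higher with DKK1 in each genotype label, Igfbp6 by log2 differences of 1.07 and 1.29 and Igfbp3 by 1.22 and 0.94. Igfbp4 (0.73 ± 0.15, adjusted p = 0.0596) and Igfbp7 (0.75 ± 0.18, adjusted p = 0.1) did not pass but did with DESeq2 (0.0145 and 0.0344) and limma-voom (0.0174 and 0.0301). The ligands did not pass (Igf1 0.14 ± 0.33, Igf2 0.47 ± 0.17). None of the receptors did, at 0.18 ± 0.15 for Igf1r, -0.15 ± 0.15 for Igf2r and 0.04 ± 0.15 for Insr. When wild type PBS library 1 was added to the fit, 0 genes were called, and Igfbp3 (0.97) and Igfbp6 (1.32) had an adjusted p of 0.903. The 4-library fit has 1 residual degree of freedom, and PBS and DKK1 libraries were single samples of each genotype label. That degree of freedom is the departure from additive effects of label and DKK1, so its SE and p-values hold no spread between replicates. EdgeR's common coefficient of variation was 0.174 in this fit and 0.498 in the 7-library fit, which holds the wild type pair. Beside these changes, 5 of 10 fibroblast markers, 3 of 7 Schwann cell markers and 1 of 12 endothelial markers were called, with median log2 changes of 0.81, 0.91 and 0.65. Erythroid markers summed to 352 CPM with PBS and 941 CPM with DKK1 in the set C wild type libraries, and to 285 and 676 CPM with the knockout label, with Hba-a1 called (1.33, edgeR adjusted p = 0.0072). Macrophage markers moved the other way, with 3 of 12 called and a median of -0.48. The part of these cells was not tested.

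**Figure D4:**
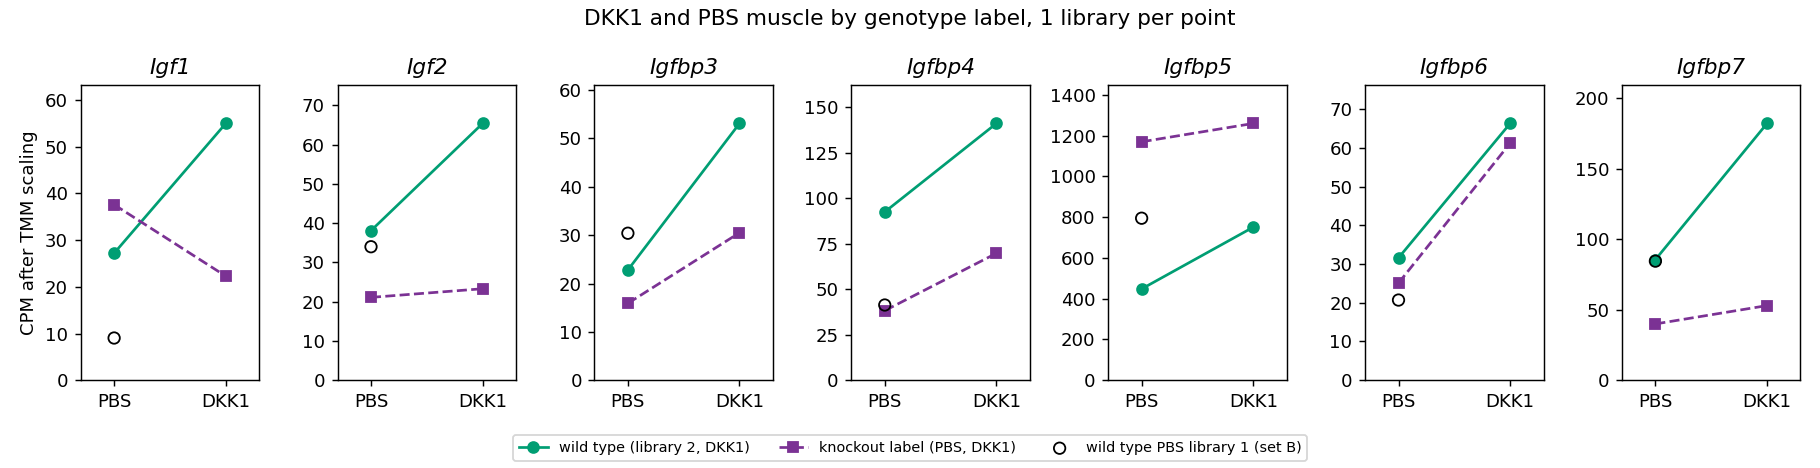
CPM after TMM scaling (vertical axes from 0, each panel with its own range) in PBS and DKK1 muscle, 1 library per point, with wild type libraries of set C joined by a solid line and knockout-labelled libraries by a dashed line. Open circles are wild type PBS library 1. Every gene shown but Igf1 slopes upward in both genotype labels, and the Igf1 lines cross. With the knockout label the rise is small for Igf2 and Igfbp5 (log2 differences 0.14 and 0.11).

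The knockout label went with lower Igfbp7 and Igf2 and higher Igfbp5. Igfbp7 was 39.9 and 52.9 CPM in the libraries labelled knockout (PBS and DKK1), below the 84.4 to 204 CPM of the other 5 muscle libraries. Igf2 was 21.1 and 23.3 CPM, below their 34.0 to 73.3 CPM. Igfbp5 was 1170 and 1260 CPM, above their 448 to 913 CPM. The share of all genes that set the libraries labelled knockout apart from the other 5 in this way was not computed. Igfbp4 was 38.2 and 69.7 CPM and overlapped wild type PBS library 1 (41.3 CPM), as Igfbp3 did (15.9 and 30.5 CPM against 22.8 and 30.4 CPM). Over the 4 set C libraries with treatment as a term, 5 of the 10 IGF genes and 21.8% of 14267 genes passed edgeR's test. As for DKK1, the spread in this fit held no replicates. Igfbp7 fell by 1.45 ± 0.18 in log2 (adjusted p = 0.00110), Igf2 fell by 1.18 ± 0.17 (0.00192), Igfbp4 fell by 1.14 ± 0.15 (0.00125) and Igfbp3 fell by 0.67 ± 0.14 (0.0115). Igfbp5 rose by 1.07 ± 0.17 (adjusted p = 0.00293). All 5 calls ended when wild type PBS library 1 was added: 0 genes were then called and these 5 had an adjusted p of 0.892, at log2 changes of -1.38 (Igfbp7), -1.08 (Igf2), -0.89 (Igfbp4), -0.77 (Igfbp3) and 0.84 (Igfbp5). Igf1, Igfbp6 and the 3 receptors did not pass.

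Within PBS, Igfbp7 alone was past the size rule in the library labelled knockout, at log2 differences of -1.08 and -1.10 from the wild type libraries (0.607% of 10872 genes lower), and it did not pass with scaling by total counts. Without library 1 Igfbp4 and Igfbp5 passed the rule as well, and without library 2 Igf1 did. EdgeR called 0% of genes there (172 had an unadjusted p under 0.05), and DESeq2 called 19. Within DKK1, 4 genes were lower with the knockout label, against 10% of 11601 genes. Igfbp7 was 52.9 CPM against 182 CPM, 3.45-fold lower (3.26 to 3.64), and Igf2 was 23.3 against 65.4 CPM, 2.81-fold lower (2.58 to 3.06). Igf1 was 22.3 against 55 CPM (2.46-fold) and Igfbp4 69.7 against 141 CPM (2.02-fold, not past 2-fold with DESeq2 size factors). For this pair edgeR called 0% of genes (213 had an unadjusted p under 0.05), and DESeq2 called 14.

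Cell markers moved with the knockout label as well. All 12 endothelial markers, 8 of 10 fibroblast markers, 8 of 10 pericyte and smooth muscle markers and 8 of 8 adipocyte markers were called in the 4-library fit, where 21.8% of all genes were, at median log2 changes of -1.20, -0.74, -1.14 and -4.62. Endothelial markers summed to 399 and 463 CPM in the libraries labelled knockout, 728 and 1370 CPM in the set C wild type libraries and 420 CPM in wild type PBS library 1. Of Schwann cell markers 6 of 7 were called (median -1.76), and of macrophage markers 7 of 12 (median -0.58). Myofibre markers had a median change of 0.65, with 8 of 10 called. The part of these cells in the binding protein changes was not tested. In the lists, Igfals, the gene of the acid-labile subunit that holds IGF and IGFBP3 in blood, rose (1.74, adjusted p = 0.00335 by edgeR, 9.09 and 8.50 CPM against 2.27 and 2.98 CPM). The adaptor gene Sh2b2 fell by 1.90 (adjusted p = 0.00233). Of the PI3K, AKT and mTOR list 5 of 29 genes were called and none was past the size rule, against 21.8% of all genes called. Irs2, a receptor substrate gene, separated sets rather than labels, at 1.06 to 2.51 CPM in the 3 set B libraries and 11.4 to 20.2 CPM in the 4 set C libraries.

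**Figure D5:**
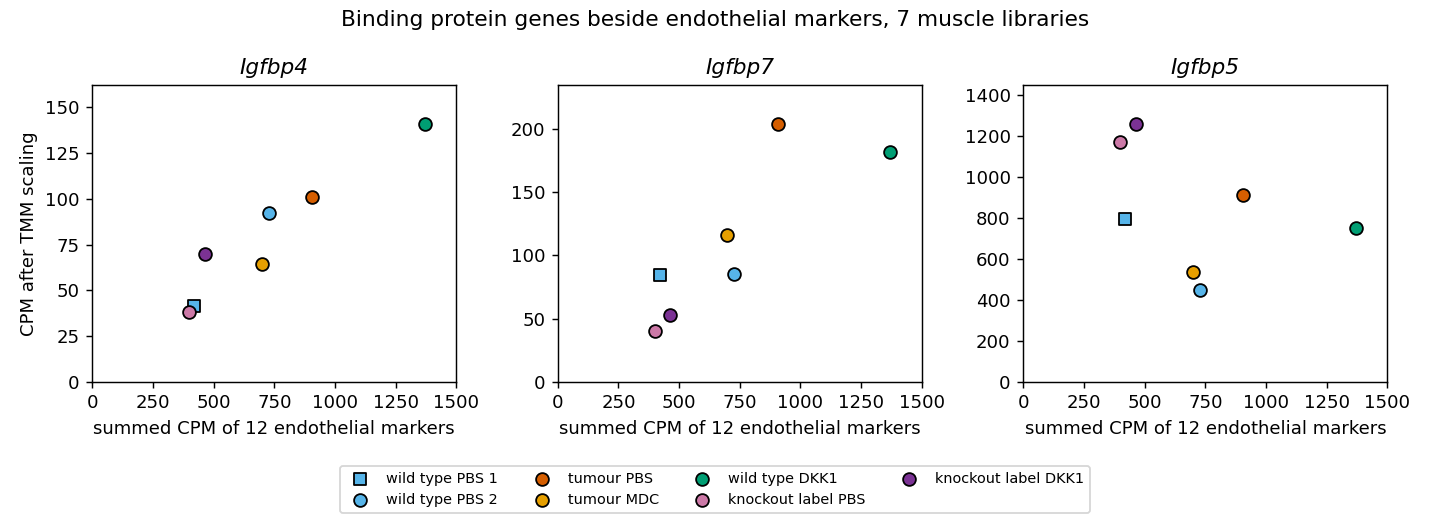
CPM of Igfbp4, Igfbp7 and Igfbp5 (vertical axes from 0) against the summed CPM of 12 endothelial markers (horizontal axis) in the 7 muscle libraries, 1 point per library, with a square for wild type PBS library 1. Igfbp4 and Igfbp7 are high where the marker sum is high, and the libraries labelled knockout are lowest for Igfbp7 and highest for Igfbp5.

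Over the 7 muscle libraries the genes varied to different degrees. The highest level exceeded the lowest by 6.09-fold for Igf1, 5.12-fold for Igfbp7, 4.19-fold for Igfbp3, 3.68-fold for Igfbp4, 3.48-fold for Igf2, 3.20-fold for Igfbp6 and 2.82-fold for Igfbp5. The receptors varied least, by 1.66-fold for Igf2r, 1.63-fold for Igf1r and 1.5-fold for Insr. In order of group level, Igf2 ran from tumour MDC and wild type DKK1, through tumour PBS and wild type PBS, to the groups labelled knockout, and the steps below wild type DKK1, tumour PBS and wild type PBS exceeded the difference of the wild type pair, itself only 0.17 in log2. Igfbp7 ran from tumour PBS through wild type DKK1, tumour MDC, wild type PBS and knockout-label DKK1 to knockout-label PBS. Its wild type pair differed by only 0.02 in log2, which gives no useful measure of spread for these steps. For Igfbp3 the steps below tumour MDC and wild type PBS exceeded the difference of its pair, and for Igfbp6 the step below the DKK1 groups did. For Igf1, the 3 receptors, Igfbp4 and Igfbp5 no neighbouring groups differed by more than that pair.

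Likeness of pattern is given by Pearson's r of log2 CPM over the 7 muscle libraries, for the 3 highest of 11330 genes, as a description. The libraries share sets, depth and cell markers, so r has no p here. Among the IGF genes themselves, Igfbp3 and Igfbp7 had r = 0.913 and Igf1r and Igfbp4 r = 0.910, and Igf2 and Igfbp5 had the lowest, r = -0.661. Pdzd8 (0.981) and Lifr (0.970) were among the genes most like Igf1, and Acd, Foxp1 and Atp1b3 most like Igf2 (0.976 to 0.988). For the receptors these were Bmp6, Ski and Sema4c (Igf1r, 0.990 to 0.994), Kdm3b, Hipk2 and Hmgxb3 (Igf2r, 0.990 to 0.997) and Slc26a11, Tec and Dcun1d3 (Insr, 0.972 to 0.984). For the binding proteins they were Medag, Cant1 and Arl8a (Igfbp3, 0.981 to 0.988), F2r, Tes and Pcolce (Igfbp4, 0.994 to 0.995), Kbtbd7, Scara5 and Scara3 (Igfbp6, 0.973 to 0.986) and Nt5e, Myf5 and Gpx8 (Igfbp7, 0.985 to 0.990). Igfbp5 had the least close pattern mates, Ap5m1, Neu3 and Ccnc (0.908 to 0.935). Against summed marker levels, Igf1r had r = 0.975 with Schwann cell, 0.974 with pericyte and smooth muscle and -0.932 with myofibre markers. Igfbp7 had 0.869 with endothelial and 0.827 with adipocyte markers, Igfbp6 0.856 with fibroblast markers and Igf1 -0.848 with myofibre markers. Igf2 had 0.911 with tendon and cartilage markers. Kidney lists gave large values in muscle too: 0.946 for Igf1r and 0.858 for Igf1 with podocyte markers, and -0.914 for Insr with distal nephron markers. Igfbp4 had similar values with several lists, 0.934 with proximal tubule, 0.930 with pericyte and smooth muscle, 0.928 with endothelial and 0.896 with fibroblast markers. In muscle the proximal tubule sum was almost all Aqp1. Aqp1 was 1894 CPM of a sum of 1900 CPM in wild type DKK1 muscle, and 546 of 580 CPM in wild type PBS library 1. The value of 0.934 therefore describes Aqp1 and not the proximal tubule list as a whole.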

How the data were processed

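Total RNA was extracted with TRIzol and sequenced from Illumina libraries, per the labels' protocols. Reads were aligned with HISAT2 2.1.0 to mm10, per the submitters' processing notes. No source used here names the counting program, annotation or strand setting. The authors' deposited tables hold a raw read count per gene, a gene length and an RPKM value that the authors computed. RPKM recomputed from the counts was within 0.0005% of the deposited RPKM.

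Counts of all 9 libraries were scaled with TMM (edgeR 4.0.16, R 4.3.3), and CPM, RPKM after scaling and log2 CPM (prior count 2) were computed. Whole tables were tested with edgeR's quasi-likelihood method after filterByExpr (minimum count 10) and Benjamini-Hochberg adjustment and a threshold of 0.05: 7 muscle libraries with 1 coefficient per group, 4 set C libraries with genotype label and treatment as terms, and 9 libraries for tissues. Each fit has 1 residual degree of freedom. In the 4-library fit it is the departure from additive effects of label and treatment, not a pair of replicates. A library alone in its group is taken to vary like the rest. P-values measure only the spread between these libraries, which may be technical. The muscle comparisons share the wild type PBS libraries. The size rule needs a 2-fold difference and 100 counts in the higher library, against each wild type library. Intervals are exact conditional binomial 95% intervals for counting error. DESeq2 1.42.0, limma-voom (limma 3.58.1), other scaling, no filter and leaving out either wild type library were alternatives. The tests were also run on simulated counts with a common spread for all genes and no difference between sets. Their outcome is not reported here. Such counts do not cover a wild type pair split over sets.

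The IGF genes, the 8 pathway lists and the 16 cell marker lists were chosen with earlier results of these data known. All 10 IGF genes were named. From each pathway list up to 2 genes in each direction with the largest change past the size rule were to be named, and for each IGF gene the 3 genes most like it, of which 1 is not reported here. Irs2, Pappa and Pappa2 in tumour kidney, Socs3 in tumour muscle and the fits with wild type PBS library 1 added were chosen after values were seen. Of the neutrophil markers, Ly6g was not used.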

Additional observations from a re-analysis of the deposited data

How the results depend on the processing

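No paired analysis was possible because replicate numbers occur in 1 group only and no label ties libraries to a shared animal. Of 570 results for single IGF genes under an alternative test or scaling, 533 kept their direction and their side of the threshold, 8 lost and 11 gained the call, and 18 changed sign, none of them called. The sign changes were 0.06 for Igf1 with the tumour and 0.05 for Igfbp4 with MDC against wild type (limma-voom), 0.01 for Igf1r in PBS with the knockout label (DESeq2 and total counts), and, with wild type PBS library 1 added, 0.12 for Igf1 and 0.08 for Igf2r with the knockout label. The others came with scaling by total counts: Insr 0.02 (tumour), -0.10 (MDC against tumour PBS), -0.09 (MDC against wild type), -0.04 (knockout label within DKK1), -0.21 (interaction), -0.12 (knockout label in set C) and 0.46 (kidney against muscle), Igf1r -0.10 (MDC against wild type), and Igf2r 0.35 (DKK1 in wild type), -0.14 (knockout label within DKK1), -0.20 (interaction) and 0.05 (DKK1 in set C). Scaling by total counts moved the median of all genes by 0.63 (kidney against muscle), 0.46 (DKK1 in wild type), -0.32 (interaction), -0.27 (MDC against tumour PBS, and the knockout label within DKK1), -0.21 and 0.19 (knockout label and DKK1 in set C), 0.16 (tumour), -0.12 (MDC against wild type) and 0.12 (DKK1 with the knockout label). In the 7-library fit edgeR called 0 genes in each comparison. DESeq2 called 12 (tumour), 11 (MDC against wild type), 4 (DKK1 in wild type), 19 and 14 (knockout label within PBS and DKK1) and 3 (interaction). Without a filter on low counts edgeR called 28, 36, 18, 39, 24 and 16 in the same order, and 11 for DKK1 with the knockout label, and with total counts 5 (tumour) and 1 (knockout label in PBS). For DKK1 in set C the 106 calls became 173 with DESeq2, 315 with limma-voom, 369 without the filter, 191 with total counts and 0 with library 1 added, (both that fit and TMM over the libraries of each fit were added after seeing the data), and for the knockout label the 3112 calls became 0 with library 1 added. Library 1 is of set B and the fit has no set term, so replicate spread and set cannot be told apart in this loss of calls. The split of these 3112 calls, 1289 higher and 1823 lower, was 411 and 2454 with total counts. Kidney against muscle, 1653 higher and 976 lower, became 2212 and 770 with total counts, 1756 and 1561 with DESeq2, and 8262 calls in all with 1 coefficient per tissue. Of the IGF genes past the size rule, total counts gave 2 (MDC against tumour PBS), 5 (DKK1 in wild type), 0 (knockout label in PBS), 2 (DKK1 with the knockout label) and 2 (DKK1 in set C), and DESeq2 size factors gave 1 for the knockout label in set C. Leaving out a wild type library in turn gave 3 to 3 (tumour), 0 to 1 (MDC against wild type), 4 to 4 (DKK1), 2 to 3 (knockout label in PBS) and 7 to 7 (kidney against muscle). Unless stated, the cause was not tested. Most groups have 1 library, and a count of 0 allows up to 0.151 CPM in the library with the highest such limit.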
